A study of Mus musculus with 4 samples.

Results

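Meningeal fibroblasts build the connective tissue that wraps the brain, and 9 genes for components of that matrix are described here: *Col1a1*, *Col1a2*, *Col3a1*, *Dcn*, *Lum*, *Ogn*, *Fn1*, *Fbln1* and *Bgn*. They were taken by symbol and not ranked by a measured value, though with earlier results of these data known, and are 9 of the 32285 genes in the files. The data came from 4 brain sections of *Nf1*+/- mice, heterozygous for the gene that encodes the tumour suppressor neurofibromin, named sections 1 to 4 here. Each fresh frozen section of 10 µm lay on a Visium slide, on which every barcoded spot captures polyadenylated RNA from the cells above it and counts it as unique molecular identifiers (UMIs). The labels give neither the allele nor the age of the mice and leave unstated how many animals gave the 4 sections. Every n below is therefore a number of sections. P-values measure a difference between spot groups only against its spread across the sections, which may be technical. All 4 sections share 1 genotype, no wild-type section was used here, and nothing below compares genotypes.

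The meninges enclose the brain and follow larger vessels inward around arteries and veins. Their fibroblasts secrete fibrillar collagen, small leucine-rich proteoglycans that coat and space the fibrils, and glycoproteins that link matrix to cells, and the same cell family also lies in the stroma of the choroid plexus, the tissue that makes cerebrospinal fluid. A Visium spot can hold several cells, so a spot rich in these RNAs is a small region and not a fibroblast, and more cells of a type and more RNA per cell cannot be told apart in it.

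Sections held 1431 to 2358 spots of at least 500 UMIs, 19261103 to 37001945 UMIs in those spots and a median of 8862.5 to 15296.5 UMIs per spot, with section 3 the shallowest. Every pair of sections differed beyond sampling noise, with a chi-square per degree of freedom of 14.5 to 55.4, so each was counted once. Between 427 and 1989 spot barcodes occurred in both sections of a pair, as slides of this kind reuse 1 barcode set. Choroid plexus-marker spots, with at least 3 of 10 epithelial markers, numbered 189, 4, 7 and 76 in sections 1 to 4.

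The 9 genes are spread over the mouse assembly GRCm38.p6, which is the mm10 build named in the submitters' processing notes. *Col1a1* and *Col1a2* encode the chains of type I collagen and lie at chr11:94936224-94953042 and chr6:4505618-4541543. *Col3a1*, the type III collagen chain (chr1:45311538-45349706), and *Fn1*, fibronectin (chr1:71585473-71653280), share chromosome 1. The proteoglycan genes *Dcn* (decorin, chr10:97479500-97518163) and *Lum* (lumican, chr10:97565501-97572703) neighbour each other, while *Ogn* (osteoglycin) lies at chr13:49608015-49624501 and *Bgn* (biglycan) at chrX:73483601-73495936. *Fbln1*, the matrix glycoprotein fibulin 1, lies at chr15:85205949-85286294.

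Upstream sequence is shown for *Col1a2*, *Col3a1* and *Ogn*, which had the largest rise in fibroblast-marker-high spots (described below) among the 5 of 9 genes matched in the promoter table, and each stretch is the 250 bases before the annotated start on the plus strand, 5′ to 3′, from RefSeq on GRCm38.p6. Capitals mark matches, on either strand, to 3 short promoter motifs. The first is CCAAT, which is known to bind the factor NF-Y. The second is TATAA, the core of the element bound by the general transcription machinery. The third is GGGCGG, known to bind factors of the SP1 family.
Col1a2 (chr6:4505368-4505617): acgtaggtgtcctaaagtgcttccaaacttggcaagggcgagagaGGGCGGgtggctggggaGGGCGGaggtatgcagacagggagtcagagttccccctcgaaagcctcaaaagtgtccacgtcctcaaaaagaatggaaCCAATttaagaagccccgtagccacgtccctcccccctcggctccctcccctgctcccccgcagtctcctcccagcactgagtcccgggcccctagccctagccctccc
Col3a1 (chr1:45311288-45311537): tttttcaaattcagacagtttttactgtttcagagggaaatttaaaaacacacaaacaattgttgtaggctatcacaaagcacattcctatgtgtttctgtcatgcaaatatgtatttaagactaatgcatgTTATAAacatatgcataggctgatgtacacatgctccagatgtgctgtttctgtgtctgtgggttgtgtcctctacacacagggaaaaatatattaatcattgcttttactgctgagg
Ogn (chr13:49607765-49608014): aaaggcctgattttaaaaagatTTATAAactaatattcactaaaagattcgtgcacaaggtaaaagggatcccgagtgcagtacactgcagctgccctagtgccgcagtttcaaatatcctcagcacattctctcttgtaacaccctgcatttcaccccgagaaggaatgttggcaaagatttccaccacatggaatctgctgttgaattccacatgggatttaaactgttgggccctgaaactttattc
The *Col1a2* stretch held 1 CCAAT, starting 109 bases before the start, and GGGCGG at 205 and 188 bases before it. *Col3a1* and *Ogn* held TATAA within the palindrome TTATAA, which begins 118 and 228 bases before the start, respectively. Of 32851 such promoter windows, 33.8% held CCAAT, 22.8% TATAA and 32.7% GGGCGG on either strand. *Fbln1* and *Bgn* were the other matched genes, and *Col1a1*, *Dcn*, *Lum* and *Fn1* were not matched.

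Together the 9 genes were sparse, with 6773 UMIs in all. Their summed level was 65.1, 82.8, 57.1 and 48.1 UMIs per 1000000 UMIs (CPM) in sections 1 to 4, a mean of 63.3 ± 14.7 CPM (SD, n = 4). At least 1 of the 9 was detected in 47.4%, 54.3%, 32.1% and 37.9% of spots. Few spots held many of them. At least 5 of the 9 genes were found together in 20, 56, 12 and 4 spots of sections 1 to 4, and no spot held all 9. The richest single spot had 36, 42, 23 and 13 UMIs of the set.

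Among the collagens, *Col1a1* was at 1.79, 5.51, 2.32 and 2.13 CPM in sections 1 to 4. Section 2 stood above the rest: 6.32% of its spots had a *Col1a1* UMI (exact 95% interval 5.37% to 7.38%), against 2.28% (1.59% to 3.15%), 2.01% (1.47% to 2.67%) and 2.45% (1.71% to 3.39%) in sections 1, 3 and 4, whose intervals overlapped. After spots of at least 5000 UMIs were thinned to 5000 UMIs, which left out 72, 143, 427 and 207 spots, the shares were 0.683%, 2.84%, 1.34% and 1.14%. *Col1a2* followed with 7.37, 10.4, 5.68 and 5.30 CPM, highest again in section 2. *Col3a1* was scarce, at 33, 56, 23 and 9 UMIs or 1.41, 1.51, 1.04 and 0.467 CPM. Intervals here cover counting error only, and since every spot is a mixture, no spot class is known to lack these genes.

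Among the proteoglycans, *Dcn*, which binds collagen fibrils and growth factors, was at 11.8, 11.5, 9.63 and 8.20 CPM in sections 1 to 4, and the shares of spots with a UMI were 11.7% (10.1% to 13.4%), 11.2% (9.95% to 12.5%), 6.19% (5.24% to 7.26%) and 7.97% (6.62% to 9.49%). The 2 deeper sections, 1 and 2, did not differ beyond these intervals. The shares of 5.39%, 4.65%, 3.86% and 3.84% after thinning kept sections 1 and 2 highest. *Lum*, a regulator of fibril spacing, was at 2.60, 3.92, 2.91 and 2.28 CPM. *Ogn* was at 4.69, 4.54, 2.04 and 2.18 CPM, with sections 1 and 2 above sections 3 and 4. *Bgn*, a close relative of decorin that is also made by vessel cells, was at 8.69, 12.7, 8.72 and 7.58 CPM.

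The glycoproteins differed in which section was highest. *Fn1*, which links collagen to integrin receptors and is also made by endothelium, was at 17.0, 25.4, 18.7 and 15.1 CPM, and 1 spot of section 2 held 22 of its UMIs. *Fbln1* was at 9.67, 7.32, 6.04 and 4.88 CPM, highest in section 1, where 12.04% of spots had a UMI (10.5% to 13.8%), close to the 10.2% (8.99% to 11.5%) of section 2 and above the 5.58% (4.68% to 6.60%) and 5.87% (4.71% to 7.22%) of sections 3 and 4. Over the 9 genes, section 2 held the highest CPM for 6 and section 1 for 3, while section 4 held the lowest for 7. Whether the sections cut the meninges at different places was not tested, because no tissue positions were used.

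**Figure D1:**
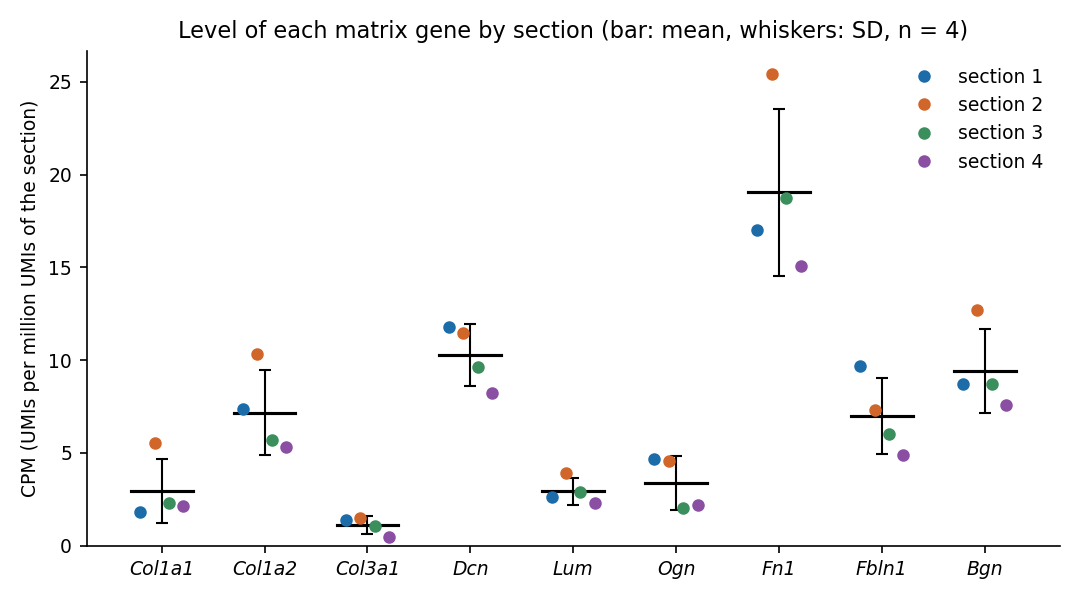
CPM of each of the 9 matrix genes (vertical axis) in sections 1 to 4 (coloured points), with the mean (bar) and SD (whiskers, n = 4). Section 2 is highest for 6 genes, among them *Col1a1* at 5.51 CPM against 1.79 to 2.32 CPM in the others. Levels are to be read across sections within a gene, not between genes.

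Part of the UMIs of these 9 genes was gathered in few spots, while most of them lay elsewhere. To keep a gene's own counts out of the choice, spots were ranked by the excess of UMIs of the other 8 genes over the number expected from the spot's depth, and the top 5% in each section were taken. Those spots held 27.7%, 31.6%, 24.9% and 18.5% of the UMIs of the 9 genes in sections 1 to 4, a mean of 25.7% ± 5.54 (SD, n = 4), while they held 3.30% to 4.59% of all UMIs. These shares are descriptions without a test.

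*Col3a1* was the most gathered by its mean, with 57.6%, 39.3%, 56.5% and 22.2% of its UMIs in the spots ranked by the other genes, the last being 2 of 9 UMIs. For *Lum* the shares were 34.4%, 49.7%, 35.9% and 40.9%, for *Dcn* 30.3%, 43.5%, 38.7% and 29.7%, and for *Ogn* 40%, 43.5%, 20% and 31.0%. *Col1a2* and *Bgn* had means of 32.7% ± 5.36 and 28.2% ± 5.47 (SD, n = 4). *Col1a1* reached 31.0%, 39.7% and 27.5% in sections 1 to 3 but 2 of 41 UMIs, or 4.88% (0.596% to 16.5%), in section 4, an interval that includes the 3.61% of all UMIs in those spots. The glycoproteins were the most dispersed, with 19.5%, 19.3%, 13.8% and 8.62% for *Fn1* and 20.7%, 19.6%, 13.5% and 6.38% for *Fbln1*. The *Fbln1* value of section 4 has an interval of 2.38% to 13.4%, which also includes the 3.65% of all UMIs in its spots.

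**Figure D2:**
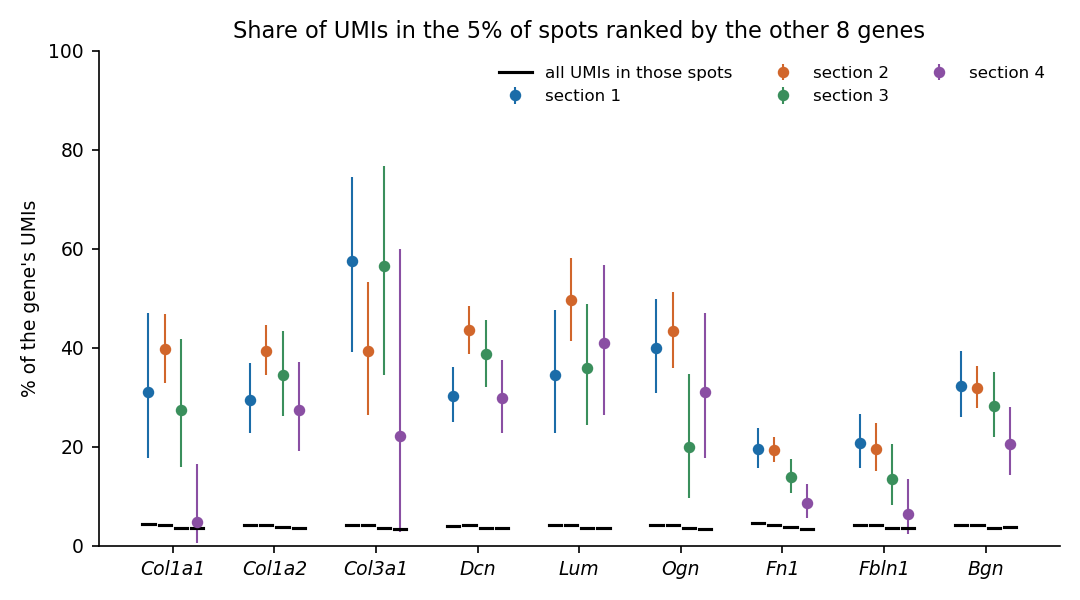
Share of each gene's UMIs (vertical axis, %) in the 5% of spots ranked by the other 8 genes, per section (points, whiskers are exact 95% intervals), with the share of all UMIs in those spots (black bars, 3.30% to 4.59%). *Fn1* and *Fbln1* lie lowest, with means of 15.3% and 15.0%, and *Col3a1* and *Lum* highest, with 43.9% and 40.2%.

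The same genes were detected together more often than depth alone gives. For each of the 36 pairs, spots with both genes were counted over the number expected from each spot's total UMIs and the section's rates, and 25 pairs exceeded expectation in all 4 sections. The median ratio was 2.10. *Col3a1* and *Dcn* were found together in 51 spots against 12.7 expected, a ratio of 4.01, and *Dcn* and *Lum* in 99 spots against 29.6, a ratio of 3.34. *Dcn* exceeded expectation with each of the other 8 genes in all 4 sections. *Fn1* had a median ratio of 1.32 over its 8 pairs, and with *Fbln1* it was found in 159 spots against 161 expected. In that pair the counts were 52, 76, 24 and 7 spots against 42.6, 74.99, 24.5 and 18.6 expected in sections 1 to 4, so only section 4 was far below. Spots share depth and tissue, and no test was made.

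**Figure D3:**
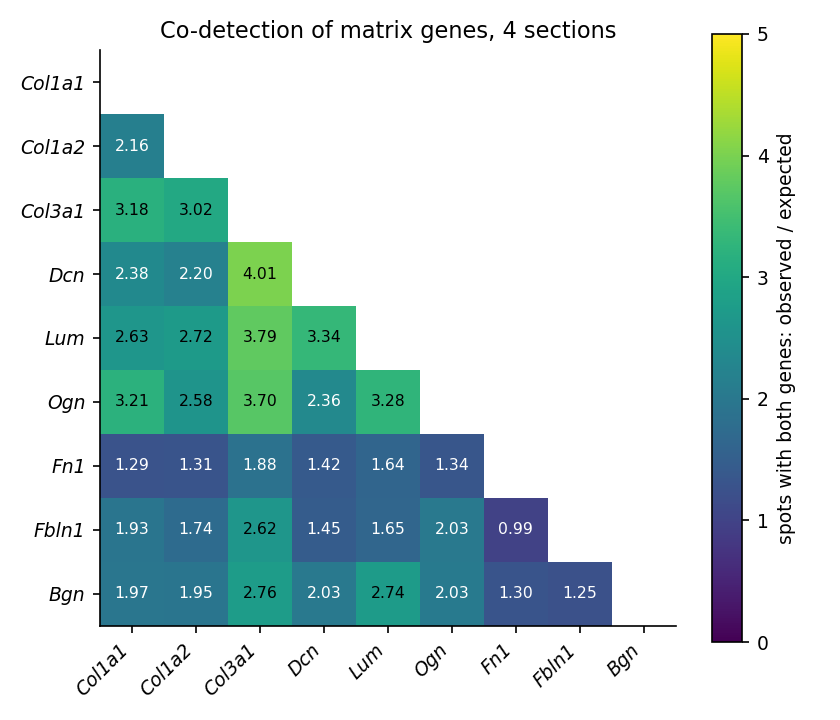
Spots with both genes of a pair, observed over expected from depth (colour and number, no unit), summed over 4 sections for the 36 pairs. Pairs of *Col3a1*, *Lum*, *Dcn* and *Ogn* reach 2.36 to 4.01, and the *Fn1* row stays at 1.88 or below.

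To ask whether the 9 genes lie where other fibroblast genes lie, spots were picked by 8 markers outside the set: *Slc6a13*, *Aebp1*, *Islr*, *Aldh1a2*, *Crabp2*, *Pcolce*, *Fam180a* and *Twist1*. The top 5% of spots per section by the same excess score (77, 118, 115 and 72 spots) were the fibroblast-marker-high spots. Within each section the UMIs of these spots and those of all remaining spots were added up, and both sums entered edgeR's quasi-likelihood test, blocked by section and with Benjamini-Hochberg adjusted p-values, a gene being called at an adjusted p under 0.05. All 9 genes were tested and 9 rose, beside 11.8% of the 14280 genes tested. Over all genes 1683 rose and 1014 fell, and with scaling to total UMIs 1492 rose and 1479 fell. Their log2 fold changes ran from 2.09 to 3.95 with a median of 3.69, against a median of 0.0033 over all genes tested, the 8 score markers left out. With no filter on low counts all 9 were called too, here and in the mural- and endothelial-marker-high spots below. In that setting 8%, 4.52% and 3.05% of all genes rose in these spot groups, respectively.

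*Dcn*, the decorin gene, was at 79.0, 113, 103 and 73.7 CPM in the fibroblast-marker-high spots of sections 1 to 4 and at 8.49, 7.24, 5.86 and 6.35 CPM in the other spots. All 4 sections were far apart and the groups did not overlap, with a log2 fold change of 3.80 (SE 0.16, edgeR adjusted p = 2.44e-11). *Ogn* was at 44.5, 41.7, 12.9 and 32.1 CPM against 2.73, 2.98, 1.61 and 1.33 CPM, a log2 fold change of 3.95 (SE 0.30, adjusted p = 4.14e-08), with section 3 the lowest of the high group and still above every other-spot value. *Lum* ran from 14.5 to 42.4 CPM against 1.65 to 2.31 CPM (log2 fold change 3.69, SE 0.32), and *Bgn* from 43.5 to 79.4 CPM against 6.44 to 9.91 CPM (2.997, SE 0.17).

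The collagens had log2 fold changes of 3.68 to 3.85. *Col1a2* was at 60.0, 100.3, 53.8 and 41.6 CPM in the fibroblast-marker-high spots and 4.78, 6.59, 3.73 and 4.27 CPM elsewhere, without overlap (log2 fold change 3.79, SE 0.18, edgeR adjusted p = 6.53e-11). *Col1a1* was at 10.9, 55.9, 16.4 and 22.7 CPM against 1.34, 3.41, 1.75 and 1.55 CPM (3.68, SE 0.31, adjusted p = 2.07e-07), so section 2 again stood above the others in both groups. *Col3a1* was at 13.6, 13.5 and 12.9 CPM in sections 1 to 3 against 0.805, 1.01 and 0.567 CPM. In section 4 none of its 9 UMIs fell in the picked spots, where a count of 0 allows up to 5.67 CPM (3 counts). The groups of *Col3a1* therefore overlapped, and its log2 fold change of 3.85 (SE 0.50, adjusted p = 2.94e-05) rests on sections 1 to 3. *Col3a1* also passed the filter on low counts through the picked spots, here and in the mural- and endothelial-marker-high spots below. Its calls with that filter are therefore no support, and the counts of 9 include them.

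The glycoproteins had the smallest fold changes of the 9. *Fn1* was at 64.5, 112, 57.3 and 39.7 CPM against 14.7, 21.8, 17.2 and 14.4 CPM, a log2 fold change of 2.09 (SE 0.16, edgeR adjusted p = 4.06e-08). *Fbln1* was at 55.4, 33.7, 23.4 and 20.8 CPM against 7.42, 6.22, 5.34 and 4.43 CPM, a log2 fold change of 2.55 (SE 0.22, adjusted p = 2.68e-07). Neither gene's groups overlapped. The difference in rise between these genes and the collagens was not tested.

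Other matrix genes moved with them. Of 85 further matrix genes in 7 fixed lists, 72 were tested in the fibroblast-marker-high spots, and 47 rose and 0 fell, beside 11.8% and 7.1% of all genes. Of 4 tested leucine-rich relatives of the set 2 rose, *Fmod* (fibromodulin) with a log2 fold change of 4.24 (SE 0.30) and *Prelp* with 2.65 (SE 0.16), while *Aspn* at 1.65 (edgeR adjusted p = 0.0533) and *Podn* at 1.64 (adjusted p = 0.0624) were not called. Of 11 basement membrane genes, 10 rose, among them the laminin chain *Lama1* (3.06, SE 0.37), the nidogens *Nid2* (2.99, SE 0.54) and *Nid1* (2.44, SE 0.40) and perlecan, *Hspg2* (2.37, SE 0.40). Elastic-fibre and glycoprotein genes rose in 13 of 15 tested, including thrombospondin 1, *Thbs1* (3.35, SE 0.52), *Mfap4* (3.24, SE 0.43), the calcification inhibitor *Mgp* (3.06, SE 0.11) and elastin, *Eln* (2.95, SE 0.41). *Thbs1* had 60 UMIs in the other spots and passed the filter on low counts through the fibroblast-marker-high ones. Its call is therefore no support, and the counts of 13 and 47 include it.

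The other collagen lists were uneven, and the counts that follow stand beside 11.8% of all genes that rose. Among 6 tested relatives that also form fibrils, only *Col5a2* rose (1.67, SE 0.49), and *Col5a1*, at 0.65 (SE 0.47, edgeR adjusted p = 0.389), was not called. Of 9 tested non-fibrillar collagens 7 rose, with *Col18a1* at 3.15 (SE 0.32), *Col12a1* at 1.80 (SE 0.34), *Col15a1* at 1.77 (SE 0.46) and *Col6a3* at 1.15 (SE 0.36). Of 18 tested processing genes 8 rose. These included the crosslinking enzyme *Loxl1* (2.80, SE 0.37), the collagen chaperone *Serpinh1* (2.39, SE 0.21), *Crtap* (2.37, SE 0.29), which helps hydroxylate collagen, and *Pcolce2* (1.87, SE 0.32), which enhances removal of the collagen C-propeptide. Of 9 tested receptors 6 rose, with the collagen receptor *Ddr2* at 2.59 (SE 0.42), *Itga1* at 1.59 (SE 0.32), *Cd44* at 1.51 (SE 0.48) and *Pdgfrb* at 1.43 (SE 0.24). *Pdgfrb* is a receptor for a growth factor and not for matrix, and the counts of 6 and 47 include it.

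Markers of other tissues moved with the same spots, in which 11.8% of all genes rose. All 10 choroid plexus markers rose, with a median log2 fold change of 3.96, and their summed level was 15.5 to 1309.8 CPM in the fibroblast-marker-high spots against 15.9 to 103 CPM elsewhere. Only *Folr1*, *Kcnj13* and *Kl* of these markers were higher in all 4 sections, and the others in 2 or 3. In sections 1 and 4, 33 of 77 and 30 of 72 fibroblast-marker-high spots were also choroid plexus-marker spots, and in sections 2 and 3 none were. With choroid plexus-marker spots left out, all 9 matrix genes still rose, by 2.36 to 4.16 (log2), beside 9.41% of all genes. Border macrophage markers rose in 6 of 6 tested (60.5 to 159 CPM summed over 8 markers against 13.2 to 18.4 CPM) and mural cell markers in 6 of 8 (242 to 733 CPM against 109 to 157 CPM), no marker of either list being at 0, and their part in the result was not tested. Erythrocyte genes rose in 4 of 4 tested (median 3.20), ependymal markers in 8 of 8 (median 2.40), endothelial markers in 8 of 8 (median 0.88) and astrocyte markers in 6 of 8 (median 0.52). Of the ependymal markers only *Rarres2* was higher in all 4 sections, and some called mural, endothelial and astrocyte markers were higher in only 2. Neuron markers fell in 6 of 8, beside 7.1% of all genes. The fibroblast-marker-high spots were also shallower, with a median of 13510, 11086, 7207 and 5267.5 UMIs against 14976, 15488, 8967 and 12523. Among spots of at least 5000 UMIs 8 of 8 tested matrix genes of the set rose, by 1.97 to 3.74, beside 9.26% of all genes.

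Vessels carry fibroblasts in their outer wall, so the genes were also followed in spots picked by 8 mural markers, of pericytes and smooth muscle. All 9 rose there, beside 6.77% of all genes tested, with log2 fold changes from 1.77 to 3.64 and a median of 2.98 against a median of -0.015 over all genes. *Dcn* was at 77.8, 92.7, 84.1 and 46.6 CPM in the mural-marker-high spots and 8.66, 7.51, 5.91 and 6.32 CPM in the others, without overlap (3.43, SE 0.15, edgeR adjusted p = 4.70e-15). *Bgn* was at 60.0, 79.9, 50.6 and 26.6 CPM against 6.25, 9.41, 6.63 and 6.65 CPM (2.92, SE 0.17, adjusted p = 1.43e-12). Section 4 was lowest in both. *Fbln1* was at 40.3, 24.9, 18.1 and 3.33 CPM against 8.21, 6.46, 5.44 and 4.96 CPM (1.77, SE 0.25, adjusted p = 1.06e-05), so section 4 went the other way, on 3 UMIs in its mural-marker-high spots.

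These spots overlapped the fibroblast-marker-high ones by 20, 48, 34 and 10 spots. With those removed, 6 of 9 genes were still called in the mural-marker-high spots, beside 2.7% of all genes, among them *Dcn* (2.42, SE 0.20), *Bgn* (2.19, SE 0.20) and *Lum* (2.18, SE 0.42). *Col1a1* at 0.79 (edgeR adjusted p = 0.545), *Col3a1* at 2.06 (adjusted p = 0.0664) and *Fbln1* at 0.92 (adjusted p = 0.0846) were not.

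In spots picked by 8 endothelial markers, all 9 genes rose as well, beside 4.96% of all genes, with log2 fold changes of 0.84 to 2.52 and a median of 1.92 against -0.024 over all genes. *Fn1* was at 63.2, 91.1, 49.5 and 37.0 CPM in the endothelial-marker-high spots against 14.6, 22.2, 17.2 and 13.8 CPM, without overlap (1.84, SE 0.12, edgeR adjusted p = 1.85e-16). *Dcn* was at 55.5, 59.0, 46.5 and 22.2 CPM against 9.51, 9.13, 7.86 and 7.37 CPM (2.44, SE 0.15, adjusted p = 5.07e-17). Both were higher in 4 of 4 sections. *Bgn* was at 40.1, 45.8 and 32.6 CPM against 7.04, 11.1 and 7.57 CPM in sections 1 to 3 but 7.41 against 7.59 CPM in section 4, and *Col1a1*, *Col3a1* and *Fbln1* were also not higher in that section.

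*Fbln1* was the weakest of the endothelial calls, at 24.8, 12.03, 10.9 and 1.85 CPM against 8.88, 7.09, 5.81 and 5.06 CPM (0.84, SE 0.25, edgeR adjusted p = 0.0262). It was lost without section 1 (adjusted p = 0.470), section 2 (0.114) or section 3 (0.0779), with DESeq2 (0.366) and without the section block (0.462). *Col1a1* was lost without section 2 (adjusted p = 0.151) and without the block (0.123). When fibroblast-marker-high spots were left out, 4 of 8 tested genes were still called, beside 2.82% of all genes: *Dcn* (1.91, SE 0.19), *Fn1* (1.48, SE 0.13), *Lum* (1.38, SE 0.40) and *Bgn* (1.20, SE 0.24). *Fbln1* at 0.11 (adjusted p = 0.940), *Col1a2* at 0.66 (adjusted p = 0.264), *Ogn* at 0.89 (adjusted p = 0.370) and *Col1a1* were not.

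Setting fibroblast-marker-high against endothelial-marker-high spots directly, with spots in both left out, showed which genes differed between them. Over all genes 3.29% were higher in the fibroblast-marker-high spots (318 higher and 148 lower, or 244 and 251 with scaling to total UMIs). *Col1a1*, *Col3a1* and *Lum* were too low to be tested. *Col1a2*, *Ogn* and *Fbln1* lay at 5.70 to 11.4, 0.951 to 9.95 and 1.90 to 8.61 CPM in the endothelial-marker-high spots. They passed the filter on low counts through the fibroblast-marker-high ones, so their calls are no support. The number called among the tested genes is therefore no support either. With no such filter 7 of the 9 were called, beside 3.54% of all genes. *Col1a2* was 2.997 higher on the log2 scale (SE 0.24, edgeR adjusted p = 1.57e-08), *Ogn* 2.91 (SE 0.39), *Fbln1* 2.34 (SE 0.30), *Dcn* 1.71 (SE 0.19) and *Bgn* 1.47 (SE 0.26). *Fn1* was at 35.9 to 79.4 CPM in the fibroblast-marker-high and 35.2 to 59.0 CPM in the endothelial-marker-high spots, overlapping ranges, and was not called (0.32, SE 0.17, adjusted p = 0.372).

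**Figure D4:**
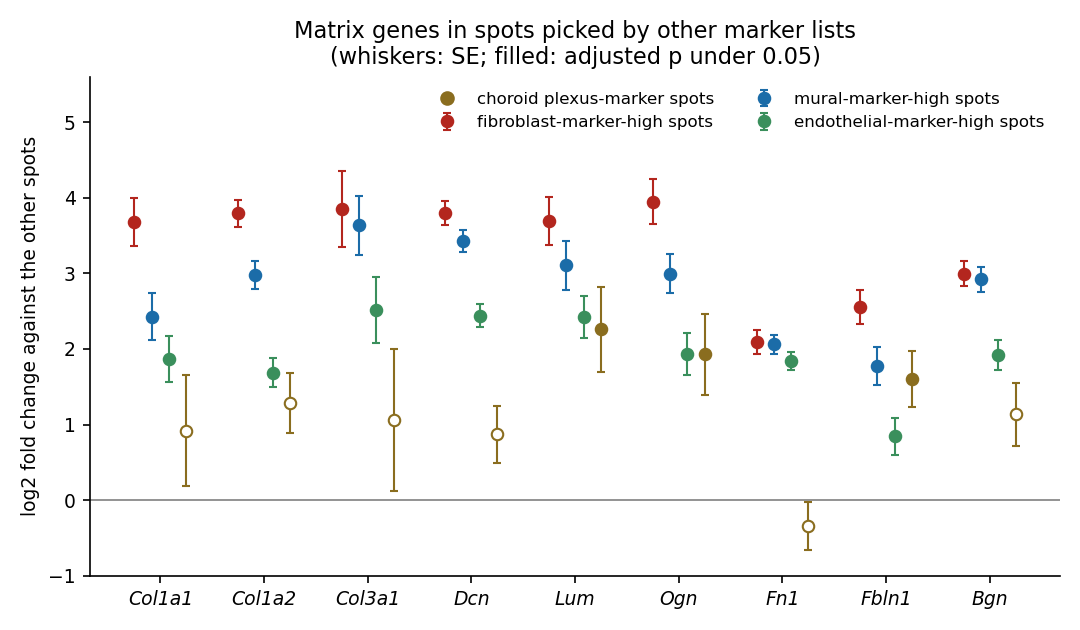
Log2 fold change of each matrix gene (points, whiskers SE) in spots picked by fibroblast, mural, endothelial or choroid plexus markers against the other spots. Filled points have an edgeR adjusted p under 0.05, which covers all 9 genes in the first 3 groups and *Lum*, *Ogn* and *Fbln1* in choroid plexus-marker spots. *Fn1* lies at 2.09, 2.06 and 1.84 in the first 3 groups.

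The choroid plexus has a stroma of fibroblasts under its epithelium. Choroid plexus-marker spots were numerous enough only in sections 1 and 4, where they held 14.2% and 3.08% of all UMIs. In section 1 they held 32.8% of the UMIs of *Lum*, 26.4% of *Fbln1*, 26.4% of *Ogn* and 23.7% of *Col1a2*, but 14.3% of *Col1a1* and 12.8% of *Fn1*. In section 4 they held 22.7% of *Lum*, 23.8% of *Ogn* and 14.9% of *Fbln1* (10, 10 and 14 UMIs), but 1.72% of *Fn1* (5 UMIs). The shares of *Col3a1*, *Bgn*, *Col1a1*, *Col1a2* and *Dcn* there were 22.2% (2 UMIs), 13.7%, 12.2%, 10.8% and 10.8%. Thus *Fn1* was the 1 gene of the 9 below the share of all UMIs in both sections.

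In the test over these 2 sections, 3 of 9 genes rose in choroid plexus-marker spots, beside 4.47% of all genes. *Lum* was at 5.99 and 16.9 CPM against 2.04 and 1.82 CPM (log2 fold change 2.26, SE 0.56, edgeR adjusted p = 0.0163). *Ogn* was at 8.69 and 16.9 CPM against 4.02 and 1.71 CPM (1.93, SE 0.54, adjusted p = 0.0357), and *Fbln1* at 17.97 and 23.6 CPM against 8.29 and 4.29 CPM (1.60, SE 0.37, adjusted p = 0.00927). The rise was greater in section 4 for each of the 3. *Fn1* was at 15.3 and 8.43 CPM against 17.3 and 15.3 CPM (-0.34, SE 0.32, adjusted p = 0.773). *Dcn* at 0.87 (adjusted p = 0.279) and *Col1a2* at 1.29 (adjusted p = 0.0666) were not called. The calls depended on the choice of spots and on the test: 0 of 9 genes were called with at least 2 of 10 markers (3.72% of all genes), 6 with at least 5 (9.01%) and 0 with fibroblast-marker-high spots left out (1.52%), and 0 without the section block and 1 with DESeq2.

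Finally, spots were picked by the 9 genes themselves, and all other genes were followed in them. The top 5% by summed excess were the matrix-gene-high spots (77, 118, 115 and 72 spots), in which the 9 genes are high by choice and were not tested. They were shallower, with a median of 12932, 11961, 6070 and 5877 UMIs against 14990, 15480.5, 9015 and 12480 in the other spots. Of these spots, 44.2%, 57.6%, 40.9% and 31.9% were fibroblast-marker-high in sections 1 to 4, 35.1%, 49.2%, 34.8% and 20.8% mural-marker-high, and 23.4%, 28.0%, 20.9% and 13.9% endothelial-marker-high. Choroid plexus-marker spots made up 22.1%, 0%, 0.870% and 25.0% of them and 11.8%, 0.179%, 0.275% and 4.27% of the other spots. In section 2 the 0 of 118 spots has an exact upper limit of 3.08%. Apart from 1 spot of section 3, the overlap with choroid plexus-marker spots lay in sections 1 and 4, which held most such spots.

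Across all other genes, 12.3% rose and 11.1% fell in the matrix-gene-high spots. The 8 fibroblast markers all rose, led by *Fam180a* (log2 fold change 4.29, SE 0.38), *Aldh1a2*, the retinoic acid synthase of meninges (4.10, SE 0.27), the GABA transporter *Slc6a13* (3.84, SE 0.23) and *Aebp1* (3.59, SE 0.17). Border macrophage markers rose in 8 of 8, with *Lyve1* (3.74, SE 0.45), *Ms4a7* (3.68, SE 0.54), *Mrc1* (3.64, SE 0.27) and *Cbr2* (3.63, SE 0.40). *Fam180a*, *Twist1*, *Lyve1* and *Ms4a7* had 53, 69, 56 and 34 UMIs in the other spots. They passed the filter on low counts through the matrix-gene-high spots, so their calls are no support, and the counts of 8 include them. Of the mural list 7 of 8 rose, and the contractile genes of smooth muscle *Myh11* (4.19, SE 0.23), *Tagln* (4.12, SE 0.18) and *Acta2* (4.09, SE 0.13) were among them. Also called from this list were *Vtn* (2.09, SE 0.12), *Notch3* (1.55, SE 0.22) and *Higd1b* (1.26, SE 0.24). The pericyte marker *Rgs5* rose by 1.03 (SE 0.11), and *Kcnj8*, at 0.25 (SE 0.40, edgeR adjusted p = 0.726), was not called. Endothelial markers rose in 8 of 8 with a median of 1.03.

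Haemoglobin genes rose in 4 of 4 tested, *Hba-a1* by 3.41 (SE 0.41) and *Hbb-bs* by 2.88 (SE 0.31), which is RNA of red blood cells. Choroid plexus markers rose in 10 of 10 (median 2.98) and ependymal markers in 8 of 8 (median 1.48). Of the choroid plexus markers only *Folr1*, *Kcnj13*, *Kl* and *Otx2* were higher in all 4 sections, and the others in 2 or 3. Of the astrocyte list 7 of 8 rose, with *Gfap* (2.40, SE 0.16) and the end-foot water channel *Aqp4* (1.41, SE 0.16) above the gap junction gene *Gja1* (0.79, SE 0.11). Microglial markers rose in 4 of 8 and mature oligodendrocyte markers in 1 of 8, beside 12.3% of all genes. The oligodendrocyte marker that rose was *Cldn11* (0.45, SE 0.12, higher in 3 of 4 sections), which meningeal cells are also known to make. Neuron markers fell in 6 of 8, beside 11.1% of all genes, *Rbfox3* by 0.58 (SE 0.09) and *Snap25* by 0.57 (SE 0.06) on the log2 scale.

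*Pdgfra* encodes the receptor by which oligodendrocyte precursor cells (OPCs) are recognized, and fibroblasts also make it. It was at 41.8, 50.4, 36.8 and 63.0 CPM in the matrix-gene-high spots and at 27.4, 27.01, 23.4 and 33.8 CPM in the other spots of sections 1 to 4. All 4 sections were higher and the groups did not overlap, with a log2 fold change of 0.78 (SE 0.13, edgeR adjusted p = 5.31e-05). Matrix-gene-high spots held 6.38%, 7.63%, 5.51% and 5.98% of all *Pdgfra* UMIs while holding 4.28%, 4.24%, 3.58% and 3.30% of all UMIs, so most *Pdgfra* lay elsewhere. A *Pdgfra* UMI was found in 40.3%, 41.5%, 20% and 43.1% of these spots against 31.0%, 30.4%, 16.6% and 31.4% of the others. *Pdgfra* was called in all 14 alternative settings, from 0.58 with the top 10% of spots to 1.17 with the top 2%, and was at 0.82 with choroid plexus-marker spots left out.

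Of the 8 OPC markers, 2 rose, beside 12.3% of all genes. These were *Pdgfra* and *Cspg4* (0.87, SE 0.21, edgeR adjusted p = 0.00337), the latter of which pericytes are also known to carry. The 6 others, among them *Pcdh15* (0.76, SE 0.29, adjusted p = 0.0614, higher in 4 of 4 sections), *Neu4* (0.19, SE 0.27, adjusted p = 0.680), *C1ql1* (0.32, SE 0.22, adjusted p = 0.327) and *Cacng4* (-0.32, SE 0.17, adjusted p = 0.187), were not called, and the list's median was 0.30 against -0.031 over all genes. In the fibroblast-marker-high spots *Pdgfra* rose by 0.84 (SE 0.14, adjusted p = 0.000265), from 27.9 ± 4.60 to 47.6 ± 6.26 CPM (SD, n = 4), and in endothelial-marker-high spots by 0.52 (SE 0.12, adjusted p = 0.00203). Between these 2 spot groups, with spots in both left out, *Pdgfra* was not called (0.38, SE 0.18, edgeR adjusted p = 0.304). It was not called in mural-marker-high (0.40, adjusted p = 0.0591) or choroid plexus-marker spots (0.36, adjusted p = 0.623). Which cells carried this *Pdgfra* was not tested.

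**Figure D5:**
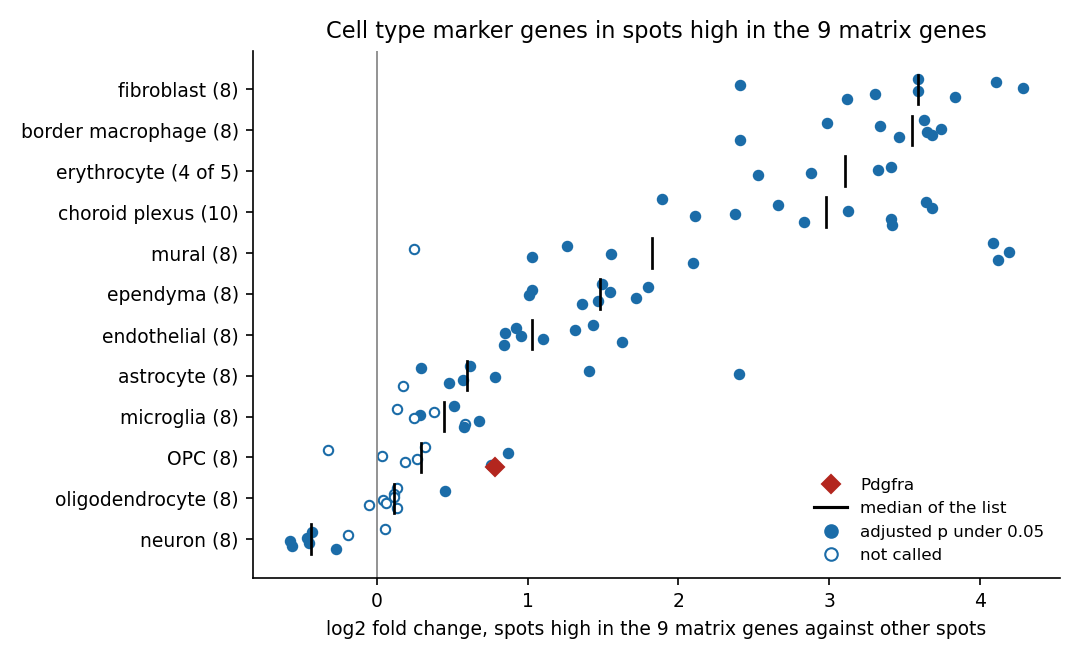
Log2 fold change of each marker gene (horizontal axis) in spots high in the 9 matrix genes against the other spots, by marker list (rows, number of genes in brackets), with list medians as black lines and *Pdgfra* as a diamond. Fibroblast, border macrophage, erythrocyte and choroid plexus lists have medians of 2.98 to 3.59, OPC 0.30 and neuron -0.44.

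Further matrix genes were also counted in the matrix-gene-high spots: of 73 tested, 49 rose and 0 fell, beside 12.3% and 11.1% of all genes. All 11 basement membrane genes rose, from *Lamb1* at 0.78 to *Lama1* at 3.25 (SE 0.30), and all 5 tested leucine-rich genes, led by *Omd*, osteomodulin (4.57, SE 0.40), and *Fmod* (4.28, SE 0.25). *Omd*, *Podn*, *Thbs1* and *Mfap4* had 42, 95, 64 and 96 UMIs in the other spots and passed the filter on low counts through the matrix-gene-high ones. Their calls are therefore no support. The count of 5 includes *Omd* and *Podn*, and the count of 49 includes all of these genes. The growth factor receptor *Pdgfrb* is also in the count of 49. *Vcan*, the large proteoglycan of OPC and brain matrix, was at 0.19 (SE 0.24, edgeR adjusted p = 0.639) and not called. Of the 18 tested processing genes 6 rose, *Loxl1* by 2.53 (SE 0.36), *Serpinh1* by 2.18 (SE 0.19), *Crtap* by 1.92 (SE 0.27) and the protease inhibitor *Timp3* by 1.66 (SE 0.09).

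The genes whose pattern across spots was most like that of the summed matrix genes were found by the Pearson correlation of depth-scaled residuals over 1431 to 2358 spots per section, averaged over 4 sections, among 12922 genes with at least 200 UMIs. These values describe spots that share depth and tissue. The highest was *Ptgds*, prostaglandin D synthase of the arachnoid and oligodendrocytes (mean r 0.617, 0.544 to 0.726 by section). Among the next were *Mgp* (0.613), *Apod*, a lipid carrier (0.513), *Igf2*, a growth factor made by meninges and choroid plexus (0.510), *Acta2* (0.497), *Tagln* (0.490), the myosin light chain *Myl9* (0.471), *Myh11* (0.451) and the LIM protein *Crip1* (0.451). The median over all ranked genes was -0.0034. *Ptgds* was at 10325, 8275, 5144 and 2885 CPM in the matrix-gene-high spots of sections 1 to 4 against 843, 684, 659.6 and 563 CPM in the others, section 4 again the lowest. *Mgp* was at 537, 624.5, 416 and 310.2 CPM against 49.8, 50.1, 41.7 and 43.5 CPM.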

How the data were processed

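The authors ran Space Ranger 1.3.1 on mm10, and the deposited matrices hold unnormalized UMI counts for each gene in each spot; the annotation release is not given in the sources used here. The 4 *Nf1*+/- sections form 1 group, with 19261103 to 37001945 UMIs per section after spots with fewer than 500 UMIs were removed. CPM are UMIs scaled to 1000000 per section or group of spots. Spots were scored by observed minus expected UMIs of a gene list over the square root of the expectation, and the top 5% per section were taken. Their summed counts were compared with those of the remaining spots by edgeR 4.0.16 in R 4.3.3 (TMM scaling, filterByExpr, quasi-likelihood F test, Benjamini-Hochberg adjustment). The section entered as a block, since its high and other spots lie in 1 piece of tissue. A standard error is the log2 fold change over the square root of F. On simulated counts for the fibroblast-marker-high comparison (14288 genes, 200 changed by a log2 fold change of 1), 131 changed and 8 unchanged genes were called, and 0 in the wrong direction. The simulation used a preset dispersion of 0.01 and no choice of spots by score, so it does not give the error rate of the real comparison.

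The 9 genes and all lists were chosen with earlier results of these data known. Named genes were the 9, *Pdgfra*, the 10 genes most like the set (1 of which is not reported here) and up to 4 genes per list with the largest called changes that ran the same way in every section. Genes named as not called, and *Gja1*, *Rgs5*, *Notch3*, *Higd1b*, *Cldn11* and *Lamb1*, were chosen after their values were seen. Alternatives were other shares of spots, other scaling and filters, DESeq2 1.42.0, no section block, each section left out, choroid plexus-marker or fibroblast-marker-high spots left out and, added after seeing the data, spots of at least 5000 UMIs. Sequences and positions come from RefSeq tables for GRCm38.p6.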

Additional observations from a re-analysis of the deposited data

Results flagged for a closer look

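Among 56 sets of 4 section values that were screened for a single section far from the rest, 2 stood out, and 2.8 would be expected by chance. *Col1a1* was at 5.51 CPM in section 2 and at 1.79 to 2.32 CPM in the other 3 sections. The log2 ratio of *Dcn* between endothelial-marker-high and other spots was 1.62 in section 4 and 2.55, 2.70 and 2.58 in sections 1, 2 and 3.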

How the results depend on the processing

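In fibroblast-marker-high spots all tested genes of the 9 were called in each of 14 alternative settings (8 to 9 genes with a section left out, where *Col3a1* was too low to be tested without section 2). In mural-marker-high spots 9 were called with any section left out and 6 without fibroblast-marker-high spots. In endothelial-marker-high spots 6 to 9 were called with a section left out, 7 without the replicate block and 4 without fibroblast-marker-high spots. In choroid plexus-marker spots the 3 calls became 0 without the replicate block, 1 with DESeq2, 0 with at least 2 markers, 6 with at least 5 and 0 without fibroblast-marker-high spots, where *Dcn* turned from 0.87 to -0.14. With 2 sections, leaving 1 out leaves no residual degrees of freedom there. Between fibroblast- and endothelial-marker-high spots 4 to 7 genes were called (5 to 7 with a section left out), as the number tested varied. Of other genes in matrix-gene-high spots, 1766 rose (1290 to 1661 with a section left out, 995 without spots holding any choroid plexus marker) and 1600 fell (905 to 1032 with a section left out, 690 without the replicate block, 871 with DESeq2, 598 without such spots). Counts over all genes moved more: 1683 rose and 1014 fell in fibroblast-marker-high spots (1079 to 1769 and 473 to 1732 in the alternatives), 963 and 349 in mural-marker-high (382 to 1006 and 25 to 862), 698 and 262 in endothelial-marker-high (308 to 903 and 2 to 549), 653 and 41 in choroid plexus-marker spots (219 to 1296 and 2 to 744), and 318 and 148 between fibroblast- and endothelial-marker-high spots (95 to 656 and 11 to 289). The mean share of UMIs in the spots ranked by the other 8 genes was 16.8% for the top 2% and 33.2% for the top 10% of spots (23.7% to 28.1% with a section left out), and the summed level was 56.7 to 68.3 CPM with a section left out. Over single genes and settings, 515 values kept their direction and side of the threshold, 26 lost the call, 4 gained it and 1 reversed. The causes were not tested. Depth limits *Col3a1* most, with 9 UMIs in section 4.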
